A study of Mus musculus with 4 samples.

Results

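The Fanconi anaemia and homologous recombination genes described here are 39 mouse genes whose products repair DNA strands that are crosslinked to each other and rejoin broken ends. They were taken by symbol from the 32285 genes of a droplet single-cell RNA count table of heart cells, and all 39 were found. Their UMIs (counted RNA molecules) were summed per library in macrophages, in cycling macrophages and in endothelial cells.

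A platinum drug joins the strands of DNA, and the joined strands stop the replication fork. In the textbook account, a core complex of Fanconi proteins and the conjugating enzyme Ube2t put ubiquitin on the Fancd2 and Fanci pair, nucleases cut the link out, translesion polymerases copy past the remnant, and the break is mended by recombination with Brca1, Brca2 and their partners. Many of these genes are known to be transcribed mainly in dividing cells, and macrophages of the adult heart divide rarely.

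The study compared heart macrophages after carboplatin, a platinum crosslinker, and after PBS. Adult mice of mixed sex received carboplatin at 45 mg/kg, or PBS, intraperitoneally 2 times a week over 2 weeks, and recovered for 4 weeks. A minipump then gave angiotensin II at 1.5 mg/kg per day with PE at 50 mg/kg per day (AngII/PE), or saline, for 7 days. The groups are thus carboplatin with AngII/PE, PBS with AngII/PE, carboplatin with saline and PBS with saline, all adult and with no allele named in the labels. For each group, CD64+ phagocytes (CD45+, CD11b+, Ly6G-, Ly6C low) from the hearts of 5 mice were pooled into 1 library, with 10000 cells loaded. A single library stands for each group, so there is no spread between replicates, no test was run, and each ratio describes these libraries alone. Intervals in parentheses are 95% intervals that cover counting error only. Those of levels and ratios treat each UMI as independent, so they are too narrow where few cells hold much of a gene's UMIs.

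The filters kept 17312 of 27968 barcodes, and 79 barcode sequences occurred in more than 1 library. Macrophages, rebuilt by clustering, numbered 3921 in the carboplatin AngII/PE library, 2127 in the PBS AngII/PE library, 1017 in the carboplatin saline library and 1949 in the PBS saline library. Cycling macrophages numbered 115 in the carboplatin AngII/PE library, 40 in the PBS AngII/PE library, 33 in the carboplatin saline library and 25 in the PBS saline library. Endothelial cells numbered 352 in the carboplatin AngII/PE library, 304 in the PBS AngII/PE library, 555 in the carboplatin saline library and 598 in the PBS saline library. Total UMIs per library ran from 17065007 to 56687873 in macrophages, from 360456 to 1928427 in cycling macrophages and from 3412230 to 4143691 in endothelial cells. All 10 macrophage markers were detected in each class, and their sum over the libraries ran from 16499 to 22406 CPM in macrophages and from 1008 to 1968 CPM in endothelial cells. The cluster with resident markers held 47 and 90 macrophages with AngII/PE after carboplatin and after PBS, and 844 and 1779 with saline after carboplatin and after PBS, so different clusters made up most of the macrophages under each pump. Clusters with macrophage markers were left unnamed where their UMIs per cell were low or Gm42418 or AY036118 was among their leading genes. They held from 16.2% to 33.6% of the kept cells of a library. No such limit on UMIs was set for endothelial clusters. The endothelial class pools a cluster of 1594 cells with a median of 8016 UMIs and one of 215 cells with a median of 1603 UMIs. In the smaller cluster, 7 of the 10 macrophage markers were at 25% or more of their CPM over all kept cells, and in the larger 1.

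A value in CPM is the UMIs of a gene per 1000000 UMIs of that class in that library, and it is compared for 1 gene across libraries, not between genes. In macrophages 39 members had 30 or more UMIs over the 4 libraries, in cycling macrophages 34 and in endothelial cells 36. Below that count were Fancf, Ercc4, Fan1, Xrcc2 and Xrcc3 in cycling macrophages, and Fanci, Xrcc3 and Chek1 in endothelial cells. In the GENCODE annotation of GRCm38 the members span 1.69 to 517 kb, with a median of 34.2 kb. Fancc, Rev1, Brca2 and Atrip overlap another listed gene on the same strand, so their counts are uncertain.

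**Figure D1:**
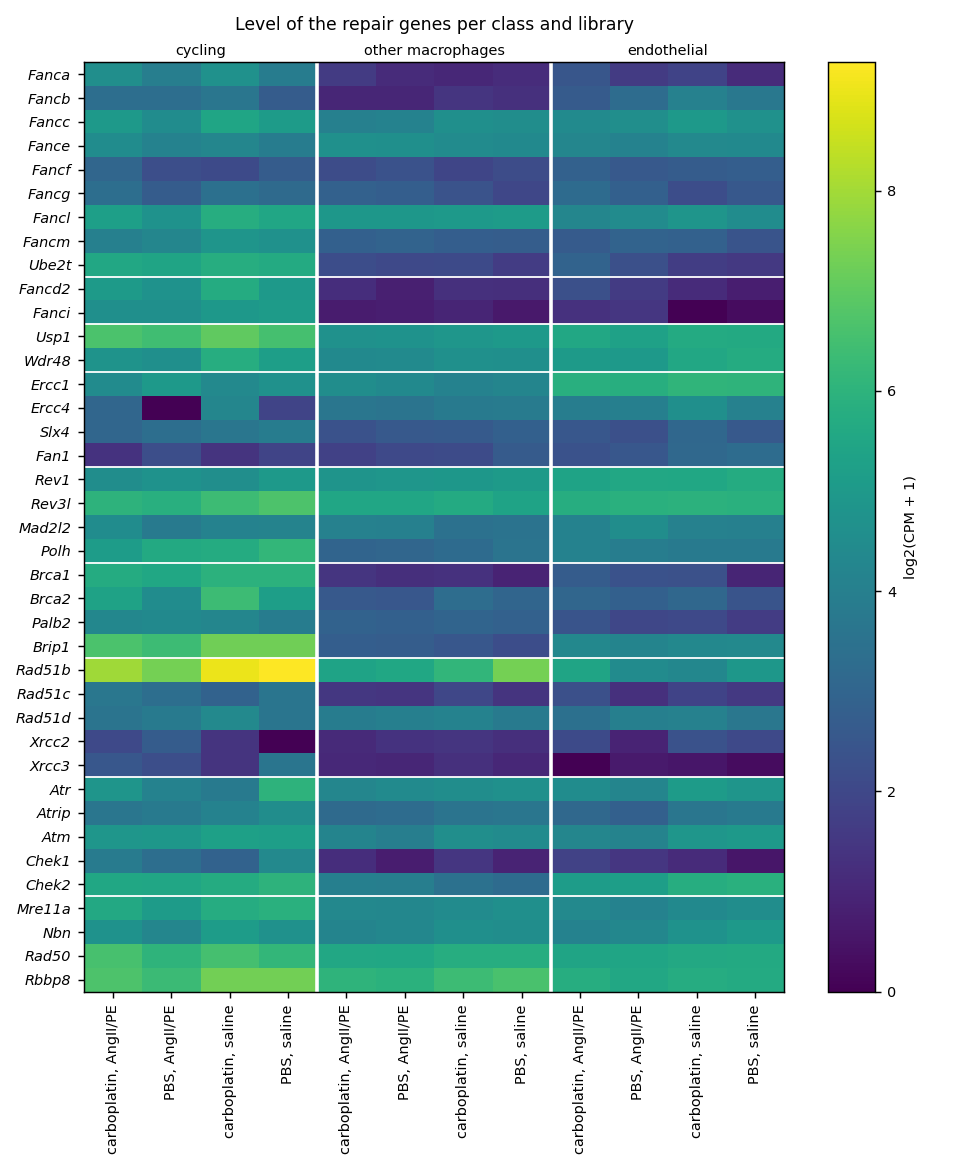
Level of the 39 repair genes as log2(CPM + 1), genes down the page by role (white lines part the role groups) and libraries across, in cycling macrophages, other macrophages and endothelial cells. The BRCA group and the pair Fancd2 and Fanci are brighter in cycling macrophages of all 4 libraries than in the other macrophages.

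Cycling macrophages carried higher levels of the BRCA group and of Fancd2 and Fanci, and of some members of most other role groups. In every library 16 of 39 members were at least 2-fold above the other macrophages of the same library, 41.0% of them, beside 12.3% of 15316 genes. The median log2 ratio was 1.01 over the members and 0.30 over all genes. The cells were clustered on their expression, these genes included, so the ratios describe the cluster and cannot test it. By the same rule 19 of 20 S phase genes, 16 of 16 G2/M genes and 16 of 41 other genes of the pathway were higher, and 0 of 17 nucleotide excision repair and 0 of 10 end joining genes. Of the G2/M genes, Mki67, Top2a, Birc5, Cdk1, Ccnb2, Nusap1 and Tpx2 were also markers that named the cluster, so their result was set in advance.

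All 4 members of the BRCA group met the rule. Brca1 (chr11:101488764-101551955 in GRCm38, minus strand) encodes the scaffold that brings recombination proteins to a break. With AngII/PE, Brca1 was at 50.8 CPM in cycling and 1.69 CPM in other macrophages after carboplatin, and at 45.7 CPM in cycling and 1.36 CPM in other macrophages after PBS. With saline it was at 60.7 CPM in cycling and 1.52 CPM in other macrophages after carboplatin, and at 61.0 CPM in cycling and 0.894 CPM in other macrophages after PBS. The classes did not overlap, and the median ratio was 36.7. Brip1, a helicase that binds Brca1, was 14.2-fold to 43.1-fold higher in cycling cells, in which it was at 99.0 CPM in the carboplatin AngII/PE library, 80.4 CPM in the PBS AngII/PE library, 153 CPM in the carboplatin saline library and 153 CPM in the PBS saline library. Brca2, which acts in recombination at a break, was 4.70-fold to 9.03-fold higher. Palb2, which joins Brca1 to Brca2, was 2.20-fold to 3.20-fold higher, the smallest ratios of the 4.

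Both members of the pair that receives ubiquitin were high in the same cells. With AngII/PE, Fanci was at 23.3 CPM in cycling and 0.653 CPM in other macrophages after carboplatin, and at 23.8 CPM in cycling and 0.711 CPM in other macrophages after PBS. With saline it was at 29.5 CPM in cycling and 0.938 CPM in other macrophages after carboplatin, and at 33.3 CPM in cycling and 0.536 CPM in other macrophages after PBS. The ratio was 31.5-fold to 62.1-fold. Fancd2 was 22.5-fold to 34.7-fold higher, from 63 UMIs in the carboplatin AngII/PE library, 14 UMIs in the PBS AngII/PE library, 31 UMIs in the carboplatin saline library and 11 UMIs in the PBS saline library in cycling cells. In the core complex 4 of 9 members met the rule. Ube2t was 12.8-fold to 23.7-fold higher, Fanca 11.1-fold to 23.3-fold, Fancb 3.79-fold to 9.28-fold and the fork translocase Fancm 2.48-fold to 4.76-fold. The counts of Fancb in cycling cells were 2 to 18 UMIs per library, which leaves wide intervals. Fancl, the ligase subunit of the complex, was between 0.890-fold and 1.77-fold.

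Among the checkpoint kinases, Chek1, which slows the cell cycle when forks stall, was 3.73-fold to 21.7-fold higher from 4 to 26 UMIs per library, and Chek2, its counterpart downstream of Atm, 2.96-fold to 7.53-fold higher. The kinases that activate them lay nearer to 1, with Atr between 0.590-fold and 2.65-fold and Atm between 1.63-fold and 1.98-fold. Usp1, which removes the ubiquitin again, was 2.96-fold to 4.57-fold higher and the translesion polymerase Polh 4.79-fold to 6.62-fold. Of Rad51b, Rad51c, Rad51d, Xrcc2 and Xrcc3, which act in recombination, Rad51c was 2.24-fold to 6.90-fold and Rad51b 3.59-fold to 7.52-fold higher. No crosslink nuclease and no protein that trims broken ends met the rule.

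No member was at least 1.5-fold lower in cycling cells of all 4 libraries, as 1.33% of genes were. The lowest median ratios were 0.565 for Ercc4, a nuclease subunit that cuts beside a crosslink, 0.573 for the nuclease Fan1, 0.778 for Fance of the core complex, 0.848 for Rad51d and 0.866 for Rev1, the translesion scaffold. Ercc4 had 14 UMIs in the carboplatin AngII/PE library, 0 UMIs in the PBS AngII/PE library, 11 UMIs in the carboplatin saline library and 1 UMI in the PBS saline library in cycling cells, and its 0 was set to 3 counts. Fan1 had 1 to 3 UMIs. Fance and Rev1 were the members below 1 in all 4 libraries. With each cell thinned to 2000 UMIs, 10 members met the 2-fold rule, and the share of all genes was not counted in that setting.

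**Figure D2:**
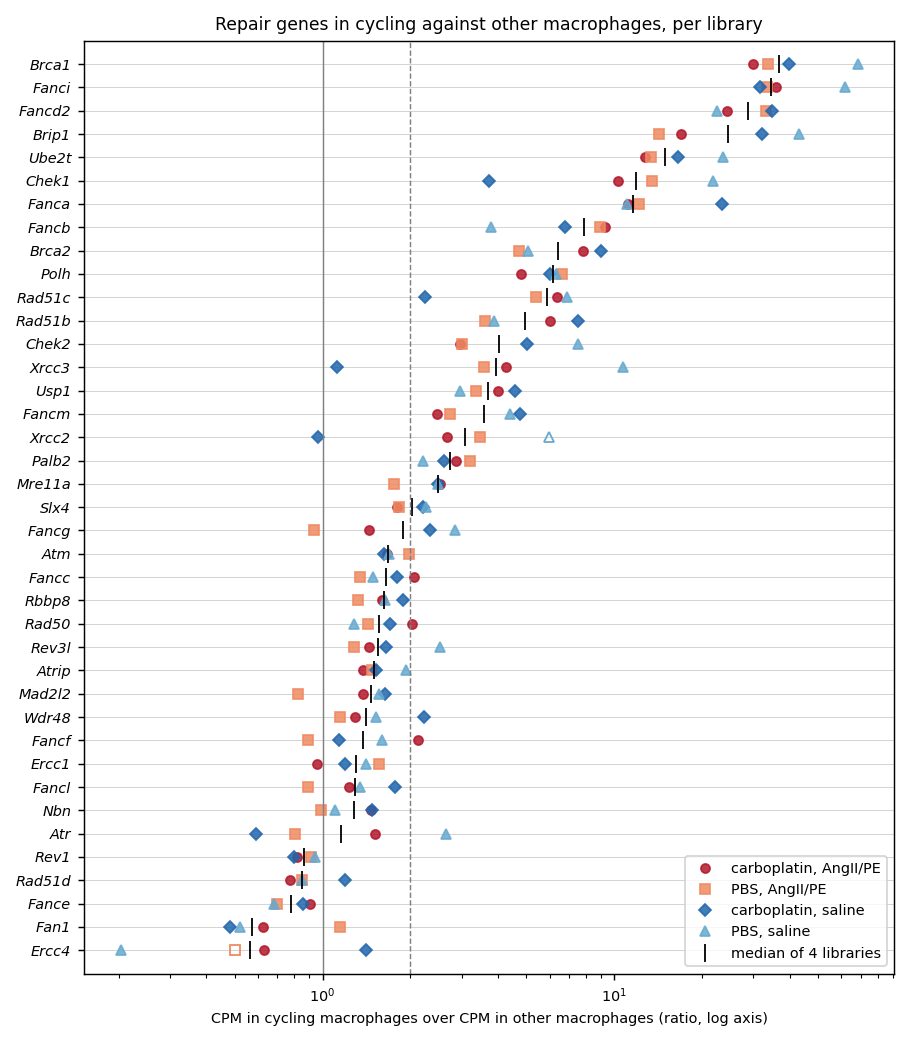
CPM in cycling macrophages over CPM in other macrophages, on a log axis, for each repair gene in each of the 4 libraries (coloured marks, open where a count of 0 was set to 3), with the median as a black bar, a solid line at 1 and a dashed line at 2. Brca1, Fanci, Fancd2 and Brip1 stand highest, with medians of 36.7, 34.6, 28.7 and 24.6.

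Because these members were high together, the letters before their starts were read. RefSeq promoters (GRCm38.p6) were matched by symbol for 31 members, and none was matched for Fancd2, Rad51d, Xrcc2, Rev3l, Usp1, Nbn, Rad50 and Rbbp8. Both strands of the 250 bases before the start were searched for E2F (TTTCCCGC, TTTCGCGC, TTTGCCGC or TTTGGCGC), CHR (TTTGAA) and CCAAT, and no spelling of one motif contains another. E2F letters were in 3 of 31 members (9.68%) and in 1.91% of 27025 promoters. They were found for 2 of the 14 matched members that met the cycling rule, Brca2 and Chek2, and for 1 of the 17 others, Fancg. CCAAT was in 17 members (54.8%) and 34.5% of promoters, and it was in 8 of the 14 and 9 of the 17. CHR letters were in 0 members and in 16.3% of promoters. A match describes letters, not binding.

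The stretches printed here run toward the start in the direction of the gene, leave out annotated exons, and show the searched letters of either strand in capitals. Brca2 (chr5:150522371-150522620, plus strand) and Chek2 (chr5:110839778-110839978, plus strand) are shown for E2F letters, Brip1 (chr11:86201194-86201369, minus strand) and Ube2t (chr1:134962315-134962564, plus strand) for 3 CCAAT matches each, Xrcc3 (chr12:111813880-111814129, minus strand) for 6 CCAAT matches in a member that missed the cycling rule, and Rad51b (chr12:79297032-79297281, plus strand) for its levels in macrophages.
Brca2: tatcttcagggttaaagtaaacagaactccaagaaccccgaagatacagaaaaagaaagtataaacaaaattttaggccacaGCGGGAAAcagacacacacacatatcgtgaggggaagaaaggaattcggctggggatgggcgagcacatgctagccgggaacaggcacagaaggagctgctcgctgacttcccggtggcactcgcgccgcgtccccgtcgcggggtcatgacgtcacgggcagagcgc
Chek2: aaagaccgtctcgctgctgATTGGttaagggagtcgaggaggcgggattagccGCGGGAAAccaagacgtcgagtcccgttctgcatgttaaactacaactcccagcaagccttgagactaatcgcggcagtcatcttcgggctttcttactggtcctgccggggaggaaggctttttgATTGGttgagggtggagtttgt
Brip1: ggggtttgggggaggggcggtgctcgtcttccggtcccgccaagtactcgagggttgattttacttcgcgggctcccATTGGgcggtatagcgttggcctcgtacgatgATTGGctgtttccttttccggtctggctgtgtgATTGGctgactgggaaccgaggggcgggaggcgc
Ube2t: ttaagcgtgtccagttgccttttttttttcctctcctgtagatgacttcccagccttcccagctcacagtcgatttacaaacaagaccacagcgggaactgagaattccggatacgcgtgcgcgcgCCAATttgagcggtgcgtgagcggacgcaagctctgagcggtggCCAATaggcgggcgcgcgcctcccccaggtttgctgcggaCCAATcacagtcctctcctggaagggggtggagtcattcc
Xrcc3: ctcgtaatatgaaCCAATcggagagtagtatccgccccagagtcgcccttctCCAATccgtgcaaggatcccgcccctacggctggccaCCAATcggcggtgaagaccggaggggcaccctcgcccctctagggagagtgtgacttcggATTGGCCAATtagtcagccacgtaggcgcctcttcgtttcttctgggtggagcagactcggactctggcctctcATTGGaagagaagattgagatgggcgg
Rad51b: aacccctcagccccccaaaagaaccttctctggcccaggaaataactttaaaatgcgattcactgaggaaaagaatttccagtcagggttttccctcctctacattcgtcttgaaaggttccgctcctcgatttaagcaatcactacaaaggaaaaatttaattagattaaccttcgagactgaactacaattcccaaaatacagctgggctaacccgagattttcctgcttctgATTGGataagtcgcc
In Brca2 and Chek2 the E2F letters read GCGGGAAA on the strand printed. Chek2 holds 2 CCAAT matches besides, and Rad51b 1.

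In macrophages outside the cycling cluster most members were at much the same level after carboplatin and after PBS. With AngII/PE, 3 of 39 members were at least 1.5-fold higher after carboplatin, beside 3.31% of 15214 genes, and 0 were lower, beside 7.20%. With saline, 5 were higher, beside 8.11% of 15145 genes, and 2 lower, beside 9.16%. The median log2 ratio was 0.031 with AngII/PE and 0.045 with saline, and over all genes -0.012 and -0.030. Summed, the members were at 646 CPM after carboplatin and 745 CPM after PBS with saline, a ratio of 0.867, and without Rad51b the ratio was 0.989 (0.964 to 1.01). With AngII/PE the summed ratio was 1.01. In male-called macrophages, 11 members were higher with saline, beside 14.7% of 14504 genes in those cells. No gene of the excision repair (17), end joining (10) and mismatch repair (7) lists was past 1.5-fold in either arm. Of 41 other genes of the pathway, 0 were higher and 1 lower with AngII/PE, and 3 higher and 0 lower with saline.

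The most abundant members of each role group show this. Fancl was at 29.5 CPM after carboplatin and 28.8 CPM after PBS with AngII/PE, and at 30.6 CPM after carboplatin and 33.0 CPM after PBS with saline. Usp1 was at 24.7 CPM after carboplatin and 25.5 CPM after PBS with AngII/PE, and at 28.4 CPM after carboplatin and 30.9 CPM after PBS with saline. Ercc1, the partner of Ercc4, was at 22.2 CPM after carboplatin and 20.0 CPM after PBS with AngII/PE, and at 16.5 CPM after carboplatin and 17.7 CPM after PBS with saline. The groups lay close together for all 3 genes. Fance, Wdr48 (the cofactor of Usp1), Ercc4, Rev1, Palb2, Atr, Atm and Rad50 (of the complex that holds broken ends) had ratios of 0.883 to 1.16 with AngII/PE and 0.886 to 1.10 with saline. Rev3l, the catalytic subunit of the polymerase that extends past a lesion, was at 49.7 CPM after carboplatin and 40.7 CPM after PBS with saline, a ratio of 1.22 (1.12 to 1.33), and its AngII/PE ratio was 1.00 (0.939 to 1.07). Brca2 and Rad51d had saline ratios of 1.25 (1.00 to 1.55) and 1.26 (1.07 to 1.47). Rbbp8, the end-trimming factor CtIP, was at 64.3 CPM after carboplatin and 59.6 CPM after PBS with AngII/PE and at 82.3 CPM after carboplatin and 96.8 CPM after PBS with saline, ratios of 1.08 (1.02 to 1.14) and 0.850 (0.797 to 0.907).

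The members at least 1.5-fold higher after carboplatin all met the cycling rule, 3 of 3 with AngII/PE and 5 of 5 with saline. Of all 39 members, 16 met it. How many of all genes higher after carboplatin met that rule was not counted. Chek1 was at 1.31 CPM (74 UMIs) after carboplatin and 0.680 CPM (22 UMIs) after PBS with AngII/PE, a ratio of 1.92 (1.18 to 3.25), and at 1.76 CPM (30 UMIs) after carboplatin and 0.894 CPM (25 UMIs) after PBS with saline, a ratio of 1.97 (1.12 to 3.49). With AngII/PE, Fanca was at 2.05 CPM after carboplatin and 1.21 CPM after PBS, a ratio of 1.70 (1.17 to 2.51), and Fancd2 at 1.34 CPM after carboplatin and 0.773 CPM after PBS, a ratio of 1.73 (1.09 to 2.85). Levels of these genes were low, and their intervals are wide. The log2 ratio of Chek1 was under the 1.5-fold limit in female-called cells, at 0.28 with AngII/PE and 0.31 with saline, and above it in male-called cells, at 1.38 with AngII/PE and 2.29 with saline. Female-called cells had a Fancd2 log2 ratio of 1.93 with AngII/PE, and male-called cells one of 0.28.

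With saline, Rad51c was at 2.93 CPM after carboplatin and 1.61 CPM after PBS, a ratio of 1.82 (1.19 to 2.79), and Ube2t at 3.28 CPM after carboplatin and 2.11 CPM after PBS, a ratio of 1.56 (1.06 to 2.28). Brca1 was at 1.52 CPM after carboplatin and 0.894 CPM after PBS, a ratio of 1.70 (0.946 to 3.08), and Fanci at 0.938 CPM (16 UMIs) after carboplatin and 0.536 CPM (15 UMIs) after PBS, a ratio of 1.75 (0.810 to 3.80). The intervals of Brca1 and Fanci include 1. In male-called cells the log2 ratio of Rad51c was -0.048, and with cells thinned to 2000 UMIs that of Chek1 was -0.065 and that of Ube2t 0.061.

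The 10 cycling markers summed to 90.2 CPM after carboplatin and 74.2 CPM after PBS with AngII/PE, and to 54.7 CPM after carboplatin and 48.4 CPM after PBS with saline. At least 1.5-fold higher after carboplatin were 3 of 16 G2/M and 0 of 20 S phase genes with AngII/PE, and 4 G2/M and 6 S phase genes with saline. At least 1.5-fold lower were 0 G2/M and 1 S phase genes with AngII/PE, and 1 G2/M and 0 S phase genes with saline. In macrophages without a UMI of any cycling marker, Chek1 had a saline ratio of 0.803 (0.222 to 2.45), Brca1 of 1.28 (0.455 to 3.42), Rad51c of 2.43 (1.36 to 4.40) and Ube2t of 1.63 (0.952 to 2.79). In such cells with AngII/PE, Chek1 had a ratio of 1.44 (0.460 to 5.27), Fancd2 of 2.94 (1.34 to 7.32) and Fanca of 1.90 (0.965 to 4.03). The part of residual cycling cells in each ratio was not tested.

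Fan1 and Rad51b were the members at least 1.5-fold lower after carboplatin with saline. Fan1 was at 3.40 CPM after carboplatin and 5.33 CPM after PBS, a ratio of 0.638 (0.463 to 0.870), and with AngII/PE at 2.49 CPM after carboplatin and 3.18 CPM after PBS, a ratio of 0.781 (0.602 to 1.02). Its saline log2 ratio of -0.65 was -0.0033 when cells were thinned to 2000 UMIs, -0.33 in male-called cells and -0.27 without cells that held a cycling marker UMI.

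**Figure D3:**
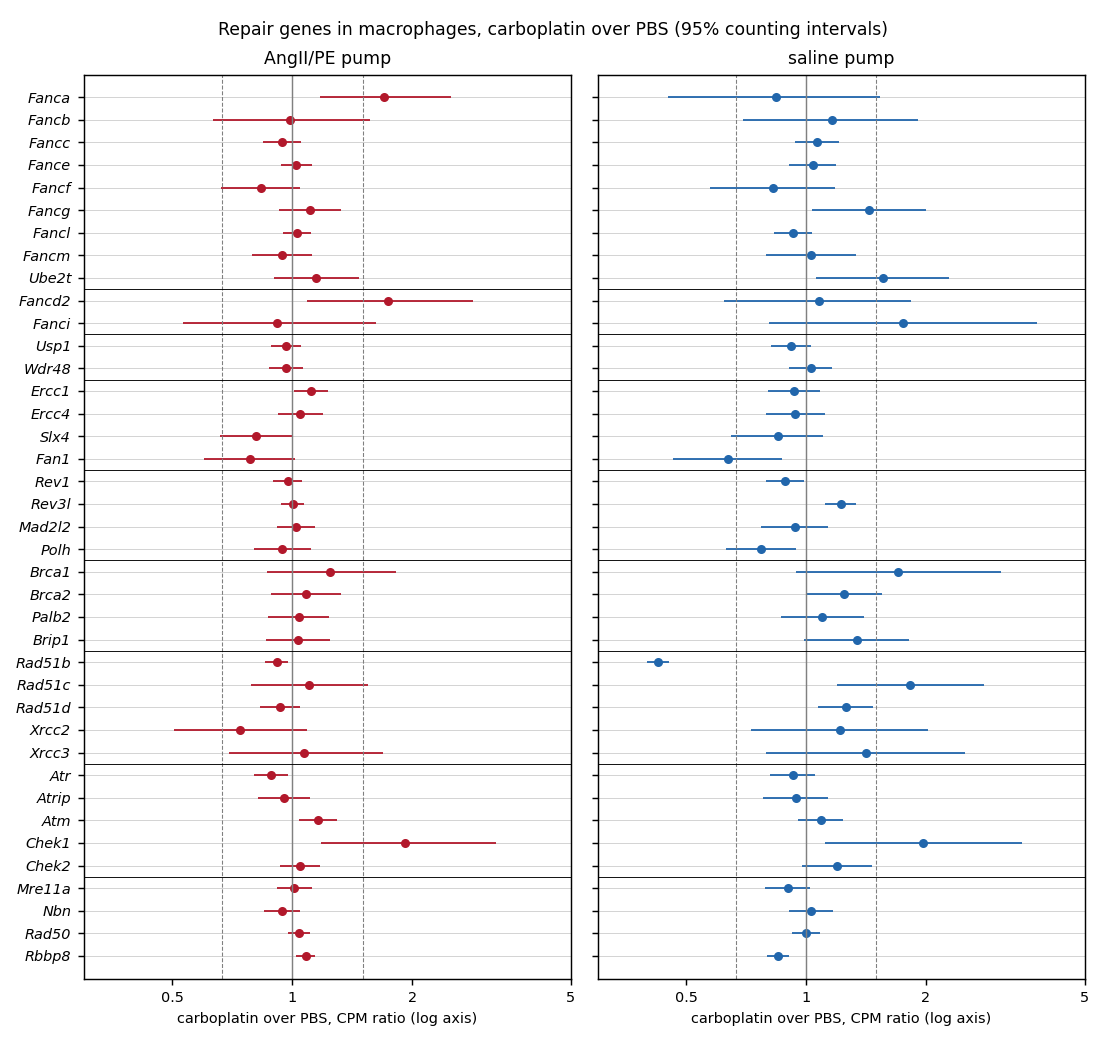
CPM after carboplatin over CPM after PBS in macrophages, on a log axis, with AngII/PE on the left and saline on the right, for the 39 repair genes by role (black lines part the role groups). Points are ratios, bars 95% counting intervals, and dashed lines mark 1.5-fold. Rad51b lies at 0.425 with saline, and the wide bars belong to genes with few UMIs.

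Rad51b had the ratio farthest from 1 among the members in macrophages. Its gene (chr12:79297282-79814690 in GRCm38, plus strand) spans 517 kb, more than any other member, and overlaps no other listed gene. With AngII/PE, macrophages had 40.9 CPM (2318 UMIs) after carboplatin and 44.7 CPM (1447 UMIs) after PBS, and with saline 68.3 CPM (1165 UMIs) after carboplatin and 161 CPM (4494 UMIs) after PBS. The PBS saline library was high and the others lay nearer to each other. Carboplatin over PBS was 0.914 (0.856 to 0.977) with AngII/PE and 0.425 (0.398 to 0.453) with saline. The sources used here do not say whether reads in introns were counted.

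The saline ratio of Rad51b was below 1 in most clusters of macrophages. In the cluster with resident markers Rad51b was at 75.0 CPM after carboplatin and 171 CPM after PBS, a ratio of 0.438 (0.409 to 0.469), and in the unnamed clusters at 98.8 CPM after carboplatin and 224 CPM after PBS, a ratio of 0.442 (0.408 to 0.478). In the cluster with interferon genes, of 25 cells after carboplatin and 31 after PBS, it was at 54.9 CPM after carboplatin and 177 CPM after PBS, a ratio of 0.310 (0.189 to 0.492). Ratios above 1 stood in the MHC class II cluster, with 31.2 CPM after carboplatin and 26.9 CPM after PBS and a ratio of 1.16 (0.735 to 1.86), and in the lipid-associated cluster, with 16 UMIs from 9 cells after carboplatin and 7 UMIs from 10 cells after PBS and a ratio of 2.45 (0.952 to 7.03). The intervals of both include 1. With AngII/PE, the 47 cells after carboplatin and 90 after PBS in the cluster with resident markers had 63.6 CPM after carboplatin and 128 CPM after PBS, a ratio of 0.497 (0.347 to 0.699), and the other macrophage clusters had ratios of 0.927 to 1.18.

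A minority of macrophages held most of the transcript in the PBS saline library. Cells with 8 or more Rad51b UMIs were 0.714% of macrophages after carboplatin and 1.27% after PBS with AngII/PE. With saline they were 2.65% (1.76 to 3.84) after carboplatin and 8.98% (7.75 to 10.3) after PBS. These cells held 37.8% of the Rad51b UMIs of the carboplatin saline library and 56.5% of those of the PBS saline library, in which 1007 of 1949 cells held none. Without such cells the saline ratio was 0.564 (0.517 to 0.614). At 2000 UMIs per cell, the share of macrophages with a Rad51b UMI was 7.18% in the carboplatin AngII/PE library, 7.43% in the PBS AngII/PE library, 8.67% in the carboplatin saline library and 20.2% in the PBS saline library, and the share of endothelial cells 3.76% in the carboplatin AngII/PE library, 3.89% in the PBS AngII/PE library, 1.82% in the carboplatin saline library and 3.88% in the PBS saline library. Macrophages of the PBS saline library thus stood apart from the rest. Unthinned, the share of macrophages was 29.6% at a median depth of 14027 UMIs in the carboplatin AngII/PE library, 29.8% at a median depth of 14962 UMIs in the PBS AngII/PE library, 39.3% at a median depth of 16384 UMIs in the carboplatin saline library and 48.3% at a median depth of 13540 UMIs in the PBS saline library. The unthinned share of endothelial cells was 13.4% at a median depth of 10026 UMIs in the carboplatin AngII/PE library, 9.87% at a median depth of 9909 UMIs in the PBS AngII/PE library, 4.50% at a median depth of 6412 UMIs in the carboplatin saline library and 5.52% at a median depth of 5869 UMIs in the PBS saline library.

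With saline, Rad51b differed more between the treatments in female-called than in male-called macrophages. Sex was called for each cell from Xist and from 4 genes of the Y chromosome. With saline, female-called macrophages had 75.4 CPM after carboplatin and 218 CPM after PBS, a ratio of 0.347 (0.317 to 0.379), and male-called ones 63.3 CPM after carboplatin and 99.8 CPM after PBS, a ratio of 0.634 (0.565 to 0.710). With AngII/PE the ratio was 0.854 (0.755 to 0.967) in female-called and 0.914 (0.835 to 1.00) in male-called cells. Female over male was 0.957 (0.874 to 1.05) after carboplatin and 1.02 (0.904 to 1.16) after PBS with AngII/PE, and 1.19 (1.05 to 1.35) after carboplatin and 2.18 (2.03 to 2.34) after PBS with saline. Each library pools 5 mice, so sex and single mice cannot be told apart here.

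Timd4, a receptor of long-lived resident macrophages, was set beside Rad51b after the values had been seen. Macrophages with a Timd4 UMI numbered 7 after carboplatin and 50 after PBS with AngII/PE, and 35 after carboplatin and 842 after PBS with saline. In the carboplatin saline library Rad51b was at 222 CPM (187 to 261) in cells with a Timd4 UMI and 62.3 CPM (58.5 to 66.2) in cells without. Among its female-called cells Rad51b was at 240 CPM (193 to 296) in 18 cells with and 67.7 CPM (62.1 to 73.8) in cells without. Among its male-called cells Rad51b was at 88.6 CPM (50.6 to 144) in 11 cells with and 62.6 CPM (56.6 to 69.0) in cells without. In the PBS saline library Rad51b was at 194 CPM (186 to 202) in cells with and 133 CPM (127 to 139) in cells without. By sex in that library, it was at 272 CPM (258 to 286) in cells with and 159.5 CPM (149 to 171) in cells without among female-called macrophages, and at 96.8 CPM (88.4 to 106) in cells with and 102 CPM (94.6 to 110.4) in cells without among male-called ones. The higher level in cells with a Timd4 UMI was thus seen in the female-called cells of that library. With AngII/PE it was at 29.0 CPM (5.98 to 84.8) in cells with and 40.9 CPM (39.3 to 42.6) in cells without after carboplatin, and at 70.1 CPM (52.8 to 91.2) in cells with and 44.1 CPM (41.8 to 46.5) in cells without after PBS. In female-called cells of the PBS AngII/PE library it was at 156 CPM (111 to 215) in 14 cells with and 42.7 CPM (38.2 to 47.7) in cells without. In male-called cells of the PBS AngII/PE library it was at 26.0 CPM (13.9 to 44.5) in cells with and 45.7 CPM (42.8 to 48.8) in cells without. Carboplatin over PBS with saline was 1.14 (0.958 to 1.35) among cells with a Timd4 UMI and 0.469 (0.435 to 0.506) among cells without. The 1.14 rests on 35 cells after carboplatin. Within each called sex, the level in cells with a Timd4 UMI was lower after carboplatin, with overlapping intervals. Female-called ones had 240 CPM after carboplatin and 272 CPM after PBS. Male-called ones had 88.6 CPM after carboplatin and 96.8 CPM after PBS. The part of Timd4 cells in the ratio was not tested.

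**Figure D4:**
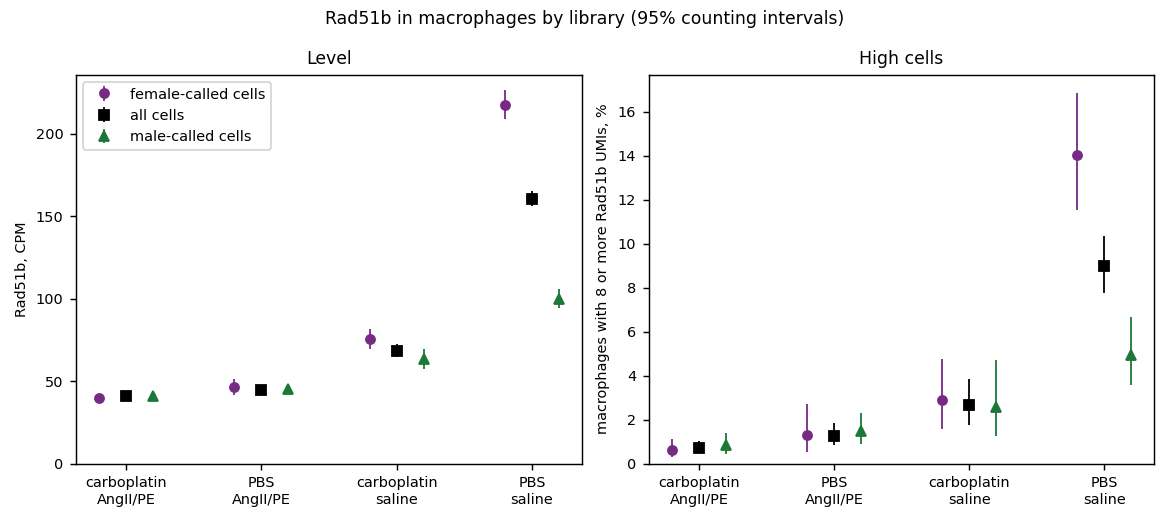
Rad51b in macrophages by library, as CPM (left) and as the percent of macrophages with 8 or more Rad51b UMIs (right), for female-called cells, all cells and male-called cells, with 95% counting intervals. The PBS saline library lies above the others, and its female-called cells are highest, at 218 CPM and 14.0%.

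Between the pumps, the shares of members past 1.5-fold lay near those of all genes. After carboplatin 4 members were at least 1.5-fold higher with AngII/PE, beside 12% of 15215 genes, and 5 lower, beside 17.0%. After PBS 4 were higher, beside 14.4% of 15226 genes, and 5 lower, beside 16.9%. The median log2 ratio was -0.22 after carboplatin and -0.20 after PBS, and over all genes -0.019 and -0.015. Fancg, a core subunit, was at 6.46 CPM with AngII/PE and 4.22 CPM with saline after carboplatin, and at 5.84 CPM with AngII/PE and 2.93 CPM with saline after PBS, ratios of 1.53 and 1.99. Chek2 was at 15.2 CPM with AngII/PE and 10.1 CPM with saline after carboplatin, and at 14.6 CPM with AngII/PE and 8.47 CPM with saline after PBS, ratios of 1.50 and 1.72. Brca2 was at 5.05 CPM with AngII/PE and 8.91 CPM with saline after carboplatin, and at 4.67 CPM with AngII/PE and 7.15 CPM with saline after PBS, ratios of 0.566 and 0.653. Rad51b had ratios of 0.599 and 0.278. These 4 members were past 1.5-fold in the same direction after carboplatin and after PBS.

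Within cycling macrophages the counts were small. With AngII/PE 6 of 34 members were at least 1.5-fold higher after carboplatin, beside 13.4% of 9145 genes, and 0 lower, beside 7.74%. With saline 6 were higher, beside 16.3% of 9042 genes, and 3 lower, beside 16.8%. Brca2 was at 39.4 CPM (76 UMIs) after carboplatin and 21.9 CPM (12 UMIs) after PBS with AngII/PE, a ratio of 1.80 (0.971 to 3.63), and at 80.4 CPM (49 UMIs) after carboplatin and 36.1 CPM (13 UMIs) after PBS with saline, a ratio of 2.23 (1.19 to 4.48). Both Brca2 ratios were above 1.5, the AngII/PE interval includes 1, and the saline log2 ratio was -0.060 in male-called cells. Rad51b was at 246 CPM after carboplatin and 161 CPM after PBS with AngII/PE, a ratio of 1.53 (1.22 to 1.95), and at 514 CPM after carboplatin and 621 CPM after PBS with saline, a ratio of 0.827 (0.694 to 0.986). Its AngII/PE log2 ratio was 0.014 in female-called cells and 1.18 in male-called cells. With saline the called sexes went opposite ways. Female-called cells had 683 CPM after carboplatin and 833 CPM after PBS. Male-called cells had 382 CPM after carboplatin and 133 CPM (6 UMIs from 4 cells) after PBS. Of the cells with a called sex, 50% were female after carboplatin and 78.9% after PBS with saline. The part of sex in this ratio was not tested. Brca1, Brip1, Fanci and Ube2t, each 12.8-fold or more higher in cycling cells of every library, had ratios of 0.887 to 1.23 over both arms. Fancd2, which stood as far above the other macrophages, had ratios of 1.28 (0.708 to 2.47) with AngII/PE and 1.67 (0.816 to 3.68) with saline, from 31 UMIs after carboplatin and 11 after PBS in the saline arm.

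Endothelial cells showed differences in a few members, mostly from few UMIs. The sort was for CD64+ phagocytes, so these cells came through it without being its target. With AngII/PE 6 of 36 members were at least 1.5-fold higher after carboplatin, beside 8.03% of 12589 genes, and 2 lower, beside 6.91%. With saline 4 were higher, beside 7.33% of 12599 genes, and 1 lower, beside 8.32%. Brca1 was at 3.87 CPM (16 UMIs) after carboplatin and 0.965 CPM (4 UMIs) after PBS with saline, a ratio of 4.01 (1.29 to 16.5), and at 5.54 CPM after carboplatin and 4.10 CPM after PBS with AngII/PE, a ratio of 1.35 (0.661 to 2.86). Brca2 was at 7.51 CPM after carboplatin and 4.34 CPM after PBS with saline, a ratio of 1.73 (0.937 to 3.28). Ercc4 had a saline ratio of 1.49 (1.08 to 2.07) and Slx4, the scaffold of the nucleases, one of 1.48 (0.824 to 2.71). The intervals of Brca2 and Slx4 include 1, and the log2 ratio of Brca2 was -0.29 in female-called cells.

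With AngII/PE, endothelial Ube2t was at 6.80 CPM after carboplatin and 3.81 CPM after PBS, a ratio of 1.79 (0.890 to 3.77). Fancb had a ratio of 0.602 (0.327 to 1.09), Rad51d of 0.657 (0.422 to 1.02) and Fancg of 1.39 (0.785 to 2.52), and the intervals of these 3 and of Ube2t include 1. The log2 ratio of Ube2t was -0.64 in female-called cells. Rad51b was at 42.1 CPM after carboplatin and 21.4 CPM after PBS with AngII/PE, a ratio of 1.97 (1.49 to 2.63), and at 18.9 CPM after carboplatin and 29.0 CPM after PBS with saline, a ratio of 0.652 (0.484 to 0.874). The 10 macrophage markers in these endothelial cells summed to 1968 CPM after carboplatin and 1274 CPM after PBS with AngII/PE, and to 1008 CPM after carboplatin and 1775 CPM after PBS with saline, so they moved in the directions of Rad51b in both arms. Without the 5% of cells with the highest doublet scores they summed to 757 CPM after carboplatin and 387 CPM after PBS with AngII/PE, and to 499 CPM after carboplatin and 503 CPM after PBS with saline. Their part in the Rad51b ratios was not tested. The AngII/PE log2 ratio of Rad51b was 2.48 in female-called cells, 1.59 in male-called cells and 0.44 with cells thinned to 2000 UMIs, and without the high doublet scores it was 1.42. Both values rest on few cells. With AngII/PE, 5 cells held 49.7% of the 167 Rad51b UMIs after carboplatin, and 3 cells held 41.1% of the 73 after PBS. With saline, 5 cells of the PBS library held 49.2% of its 120 Rad51b UMIs. Cells with fewer than 5 cycling marker UMIs held 68 Rad51b UMIs after carboplatin and 36 after PBS with AngII/PE. With saline such cells held 35 after carboplatin and 120 after PBS. Without those high doublet scores, 64 UMIs were left after carboplatin and 32 after PBS with saline, and the log2 ratio was 0.22 in male-called cells and, without those high scores, 0.91.

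Summed over endothelial cells, G2/M genes were higher after carboplatin, with most of their UMIs after carboplatin in few cells. Of these genes 15 of 15 with AngII/PE and 13 of 14 with saline were at least 1.5-fold higher. They summed to 326 CPM after carboplatin and 96.7 CPM after PBS with AngII/PE, and to 87.4 CPM after carboplatin and 17.6 CPM after PBS with saline. With AngII/PE, cells with 5 or more cycling marker UMIs were 23 of 352 after carboplatin and 13 of 304 after PBS. With saline they were 14 of 555 after carboplatin and 8 of 598 after PBS. Without them the sum was 31.5 CPM after carboplatin and 17.2 CPM after PBS with AngII/PE. With saline it was then 13.5 CPM after carboplatin and 11.2 CPM after PBS. In that setting 7 of 12 genes with AngII/PE and 2 of 9 with saline were at least 1.5-fold higher. Some cycling markers are also on the G2/M list. In endothelial cells with fewer than 5 cycling marker UMIs, Brca1 had 7 UMIs after carboplatin and 1 after PBS with AngII/PE, and 6 after carboplatin and 4 after PBS with saline. The carboplatin saline library had 16 Brca1 UMIs in all, and the others lay among its 14 endothelial cells with 5 or more cycling marker UMIs. The part of cycling cells in the other ratios was not tested.

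**Figure D5:**
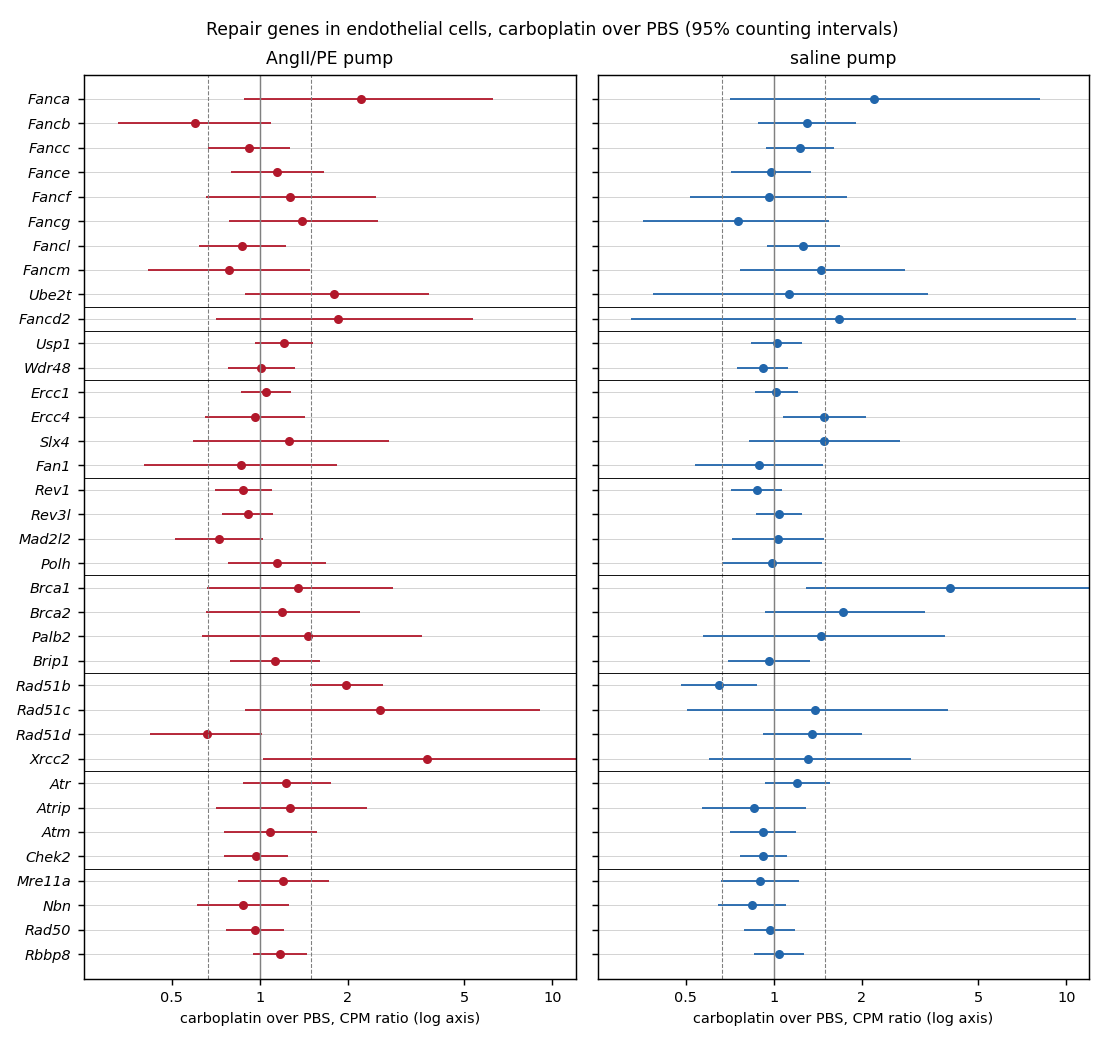
CPM after carboplatin over CPM after PBS in endothelial cells, on a log axis, with AngII/PE on the left and saline on the right, for the 36 repair genes with 30 or more UMIs by role. Points are ratios, bars 95% counting intervals (cut at the edge of the axis), and dashed lines mark 1.5-fold. Rad51b lies at 1.97 with AngII/PE and 0.652 with saline.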

How the data were processed

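Each of the 4 libraries is represented by deposited raw counts of UMIs per gene and cell barcode. Per the file headers they came from Cell Ranger 7.1.0. Version 3 and the mouse build mm10 are named in the labels' protocols, and Seurat 4 in the submitters' processing notes. Cells were kept by the limits the submitters state: mitochondrial share under 10%, fewer than 30000 UMIs, over 500 genes and under 7000. They were normalised with SCTransform (sctransform 0.4.2, Seurat 5.3.0, R 4.3.3) and grouped into 23 clusters with 80 components and resolution 0.6. Clusters were named from marker lists, with limits chosen once the data had been seen, so the names are rebuilt ones. Doublets were kept, and removing the 5% of cells with the highest Scrublet scores (scanpy 1.11.5) was an alternative.

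CPM ratios have exact conditional binomial intervals and shares Clopper-Pearson intervals (95%). A count of 0 was set to 3 counts. The counting script was tested on simulated data. The members, gene lists and rules were chosen with earlier results of these data known. Values are given for the 2 most abundant members of each role group, members past 1.5-fold in macrophages with 100 or more UMIs, the 12 highest and 5 lowest in cycling cells, and 5 per arm in endothelial cells with 50 or more UMIs. Fanci in macrophages, Fancg and Chek2 between the pumps, and the Timd4 values were chosen after the values were seen. Alternatives were TMM scaling (edgeR 4.0.16), minimums of 1 and 100 UMIs, cells over 1000 genes, thinning, each sex, doublet scores and other sets of cells.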

Additional observations from a re-analysis of the deposited data

Results flagged for a closer look

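Atr, the kinase that answers stalled forks, differed between the pump arms in cycling macrophages. It was at 27.5 CPM (53 UMIs) after carboplatin and 16.4 CPM (9 UMIs) after PBS with AngII/PE, a ratio of 1.67 (0.817 to 3.85), and at 13.1 CPM (8 UMIs) after carboplatin and 63.8 CPM (23 UMIs) after PBS with saline, a ratio of 0.206 (0.0796 to 0.477). The log2 ratios of 0.74 with AngII/PE and -2.28 with saline differ by 3.02, with the libraries on opposite sides, and the difference was not tested. Rad51b did the same in endothelial cells, with log2 ratios of 0.98 with AngII/PE and -0.62 with saline, 1.59 apart. The 10 macrophage markers in these endothelial cells summed to 1968 CPM after carboplatin and 1274 CPM after PBS with AngII/PE, and to 1008 CPM after carboplatin and 1775 CPM after PBS with saline, on the same sides. The difference was not tested, nor was the part of those markers in it, and its saline direction turned when the cells with the highest doublet scores were left out.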

How the results depend on the processing

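No paired analysis was possible because each group has 1 library. Of 355 recomputed values, 112 for counts and medians and 156 for single genes and shares stayed within their limits. Some of these could not move. A changed minimum of UMIs leaves the ratio of a single gene as it was, and such ratios were kept for genes under the 100 UMI minimum too. In macrophages all members already had 30 or more UMIs, so a minimum of 1 changed no count there. TMM scaling, a minimum of 1 UMI and cells with over 1000 genes reversed no value. For every value that follows the cause was not tested, beyond the loss of cells or counts each setting brings. Ratios are carboplatin over PBS unless named, and counts are members past 1.5-fold. Among these settings, the share of all genes is given where 100 or more UMIs were required. It was also counted, as given above, for genes higher with saline in male-called macrophages. In the other settings it was not counted, so those counts show how a value moved and do not set the members apart from other genes.

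With 100 or more UMIs required, 2 of 17 members were past 1.5-fold in cycling macrophages with AngII/PE (all genes: 8.75% higher, 4.54% lower) and 3 of 17 with saline (all genes: 11.4% higher, 11.6% lower). In endothelial cells 3 of 24 were past with AngII/PE (median log2 -0.017; all genes: 4.76% higher, 3.71% lower) and 1 of 24 with saline (median -0.026; all genes: 4.18% higher, 5.08% lower). Thinned to 2000 UMIs per cell, macrophages had 5 of 38 lower with AngII/PE and 1 of 35 with saline. Thinned cycling macrophages had 15 of 26 past with AngII/PE and a saline median of -0.51 over 12 members. Thinned endothelial cells had 15 of 32 past with AngII/PE (median -0.10) and 9 of 32 with saline. Chek1 had a thinned saline log2 ratio of -0.065 in macrophages, and 10 members were 2-fold higher in thinned cycling cells.

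In female-called cells, macrophages with AngII/PE had 5 of 39 higher and 1 lower (median -0.015), and cycling macrophages with AngII/PE 17 of 34 past. Female-called endothelial cells had a median of -0.024 with AngII/PE and of 0.12 with saline, where 8 of 30 were past. AngII/PE over saline had a median of -0.18 after carboplatin and -0.11 after PBS, where 14 of 39 were past. Log2 ratios were -0.29 for endothelial Brca2 with saline, -0.64 for endothelial Ube2t with AngII/PE and -0.10 for Fancd2 in cycling macrophages with saline. In male-called cells, macrophages had 1 of 39 lower with AngII/PE and 11 of 39 higher with saline (median 0.13). Male-called cycling macrophages had 18 of 26 past with saline (median 0.22). Male-called endothelial cells had a median of 0.28 with AngII/PE and 0.22 with saline, where 8 of 35 were past. AngII/PE over saline had a median of -0.17 after carboplatin. Saline log2 ratios were -0.048 for Rad51c in macrophages, -0.060 for Brca2 in cycling macrophages and 0.22 for endothelial Rad51b.

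With the unnamed clusters added, macrophages had a median of -0.031 with AngII/PE and 0.085 with saline, 1 lower with saline, and an AngII/PE over saline median of -0.27 after carboplatin. The cluster with resident markers alone had 4 of 27 lower with AngII/PE (median 0.12) and 1 of 39 lower with saline. Without cells that held a cycling marker UMI there were 1 lower with AngII/PE and 3 higher with saline (median -0.042), and the saline log2 ratio of Chek1 was -0.32. Without the 5% highest doublet scores endothelial Rad51b had 0.91 with saline. Chosen after seeing the data, the split by a Timd4 UMI gave Rad51b 0.19 with saline in macrophages with one. Within each called sex the level in those macrophages was lower after carboplatin, with overlapping intervals. Only 18 female-called and 11 male-called cells after carboplatin entered it. Also chosen after seeing the data, endothelial cells with fewer than 5 cycling marker UMIs had 12 of 36 members past 1.5-fold with AngII/PE. With saline they had 3 of 35, against 8 of 36 with AngII/PE and 5 of 36 with saline in all endothelial cells. With saline there were 8 in the higher-UMI endothelial cluster alone. Genes at a few CPM are limited by their counts, and a group of 1 library leaves variation between mice unmeasured.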

Other observations

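Rad51b was unevenly spread among cycling macrophages too. Cells with 8 or more Rad51b UMIs were 19.1% of 115 cycling macrophages (12.4 to 27.5) after carboplatin and 12.5% of 40 (4.19 to 26.8) after PBS with AngII/PE. With saline they were 51.5% of 33 (33.5 to 69.2) after carboplatin and 40.0% of 25 (21.1 to 61.3) after PBS. These intervals cover counting of cells within 1 library each, and the libraries were not tested against each other.

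The unnamed clusters with macrophage markers held Rad51b at 66.7 CPM after carboplatin and 63.8 CPM after PBS with AngII/PE and at 98.8 CPM after carboplatin and 224 CPM after PBS with saline. In each library that was above the level in the named macrophages. Cells of the unnamed clusters had lower depth, with library medians of 4013 to 6018 UMIs, against 13540 to 16384 in the named macrophages. The part of depth in the Rad51b level was not tested. In endothelial cells the pump ratios of Rad51b were 2.23 after carboplatin and 0.739 after PBS, AngII/PE over saline. The 10 macrophage markers in the same cells summed to 1968 CPM with AngII/PE and 1008 CPM with saline after carboplatin, and to 1274 CPM with AngII/PE and 1775 CPM with saline after PBS, and their part in the Rad51b ratios was not tested.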
